A study of Homo sapiens with 40 samples.

Results

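The 41 genes described here encode factors that hold, release, drive or end transcription by RNA polymerase II. They are subunits of the pausing factors DSIF and NELF, elongation factors, 13 subunits of the Integrator complex, proteins that restrain the polymerase or release it from DNA, and the kinase of TFIIH. They were chosen by name, as a list of symbols, and are 41 of the 63152 genes counted. Each symbol matched 1 gene identifier, 38 of the 41 passed the filter on low counts and were tested, and SUPT4H1, EAF1 and INTS12 did not pass it. The RNA came from U2OS cells, a human osteosarcoma line, that carry MYC under a Tet-On promoter, so that doxycycline (Dox) switches the gene on. All cells were infected with a pGIPZ hairpin vector and selected in puromycin at 0.2 µg/ml. The hairpins were number 3 or 5 against CTR9 (shCTR9), number 3 or 4 against CDC73 (shCDC73), or the control labelled shNTC. Treatment lasted 24 h, with Dox (1 µg/ml) or ethanol, written EtOH here, and gave Dox groups with shCTR9 #3, shCTR9 #5, shCDC73 #3, shCDC73 #4 and shNTC, and EtOH groups with the same 5 hairpins. Each of these 10 groups had 4 libraries, 40 in all. The labels do not say whether the cells are 1 clone or whether the libraries of a group came from separate cultures, so the p-values measure the spread between libraries, which may be technical.

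As background, the polymerase stalls shortly after it starts, held by DSIF together with NELF. Kinases, recruited in part through the super elongation complex, then phosphorylate DSIF, NELF and the tail of the polymerase. NELF leaves, and the PAF1 complex, of which CTR9 and CDC73 are subunits, and SPT6 join the moving enzyme. Integrator can end transcription early by cutting the nascent RNA and by removing phosphates from the polymerase through a bound phosphatase. MYC is a transcription factor that, paired with MAX, binds E-box sequences near the start of many genes.

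Levels are in CPM, the reads of a gene scaled to a common library size so that libraries of different depth can be compared. Library totals ran from 877323 to 1532617 counts, and the floor of 3 counts for a gene without reads equals 1.96 CPM where depth was highest and 3.42 CPM where it was lowest, counting error only. CTR9 reached at most 27.1 CPM in shCTR9 libraries, against 67.5 to 98.0 CPM in shNTC libraries, and CDC73 at 3.3 to 13.9 CPM in shCDC73 libraries, against 26.2 to 41.9 CPM in shNTC libraries. CTR9 itself stood at 121.6 to 215.6 CPM in shCDC73 libraries, above all shNTC libraries. MYC stood at 7854 to 15856 CPM in Dox libraries, against 441 to 738 CPM in EtOH libraries, and its highest group mean was in shNTC cells with Dox. In Dox its group means were 77.4% and 62.8% of shNTC with shCTR9 #3 and #5. With shCDC73 #3 and #4 they were 71.8% and 55.5%. In EtOH the knockdown groups stood at 103% to 133% of shNTC. The Dox knockdown comparisons and the interactions therefore involve cells with unequal MYC RNA. Markers of mesenchymal cells (VIM, COL1A1, COL1A2, SPARC, RUNX2, ALPL) summed to group means of 778 to 1596 CPM, those of epithelial cells (EPCAM, CDH1, KRT8, KRT18, KRT19) to 195 to 401 CPM. Those of endothelial cells (PECAM1, VWF, CDH5) summed to 0.783 to 2.53 CPM with PECAM1 at 0. In 3 libraries, EtOH shCDC73 #4 replicates 1 and 3 and EtOH shCTR9 #3 replicate 1, long transcripts were low relative to short ones (slopes of -0.221 to -0.167 log2 units per doubling of length, against -0.087 to 0.062 in the other 37). These libraries enter the EtOH values of both knockdowns; the calls that end without them are named with their results.

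The promoters of 4 members on which the results turn are shown first, because Dox switches MYC on and its E-box letters can be looked for there. CDK7 and ELOA are members whose RNA rose with Dox in control cells, and SUPT16H and INTS3 are members whose RNA fell with every knockdown. The sequences are RefSeq windows on GRCh38.p14, written 5′ to 3′ on the strand of the gene, from 250 bases before to 50 bases after the annotated start. They lie at chr5:69234636-69234935 on the plus strand for CDK7, chr14:21383970-21384269 on the minus strand for SUPT16H, chr1:23743221-23743520 on the plus strand for ELOA and chr1:153727800-153728099 on the plus strand for INTS3. Capitals mark the letters CACGTG, which read the same on both strands, and everything else is in lower case.
CDK7: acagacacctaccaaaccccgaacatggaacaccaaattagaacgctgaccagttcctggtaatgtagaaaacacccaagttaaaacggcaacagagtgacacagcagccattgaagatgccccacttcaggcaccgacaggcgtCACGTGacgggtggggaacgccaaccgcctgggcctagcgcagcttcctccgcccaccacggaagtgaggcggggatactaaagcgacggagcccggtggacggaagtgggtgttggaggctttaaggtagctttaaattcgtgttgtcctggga
SUPT16H: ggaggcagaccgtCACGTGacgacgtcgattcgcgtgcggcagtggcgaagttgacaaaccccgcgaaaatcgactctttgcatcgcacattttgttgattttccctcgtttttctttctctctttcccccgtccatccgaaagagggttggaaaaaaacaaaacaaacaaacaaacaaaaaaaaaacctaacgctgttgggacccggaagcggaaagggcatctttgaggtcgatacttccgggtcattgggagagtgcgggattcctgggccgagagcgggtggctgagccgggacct
ELOA: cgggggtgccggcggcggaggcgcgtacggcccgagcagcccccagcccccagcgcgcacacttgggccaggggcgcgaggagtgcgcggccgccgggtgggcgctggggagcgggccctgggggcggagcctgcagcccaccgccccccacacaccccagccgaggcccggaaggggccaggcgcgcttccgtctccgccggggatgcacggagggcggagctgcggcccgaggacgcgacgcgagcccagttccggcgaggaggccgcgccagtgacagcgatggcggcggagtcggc
INTS3: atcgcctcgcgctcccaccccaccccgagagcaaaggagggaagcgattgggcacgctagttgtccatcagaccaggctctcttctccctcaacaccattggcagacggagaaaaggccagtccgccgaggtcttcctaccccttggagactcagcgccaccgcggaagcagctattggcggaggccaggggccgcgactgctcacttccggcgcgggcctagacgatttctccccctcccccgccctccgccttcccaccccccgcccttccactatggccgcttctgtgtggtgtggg
The letters lie 105 bases before the start in CDK7 and 237 bases before it in SUPT16H, and they are absent from the windows of ELOA and INTS3. Of the 34 members with a window in the table, 6 held the letters (17.6%), namely SUPT16H, AFF4, MLLT1, INTS6, PHF3 and CDK7. Of all 35116 windows 7.26% held them, and of the 13268 windows of genes tested here 9.39%. These shares count every window, so a gene can enter more than once, while only the first window of each member was read. Of the 6 members with the letters, CDK7 was the only one whose RNA passed the test for Dox in shNTC cells. These matches describe letters in a window and were not tested as binding sites.

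Per exon length, the most abundant members in shNTC cells with EtOH were SSRP1, the smaller subunit of the histone chaperone FACT, at 114.5 ± 2.70 CPM per kb, and NELFCD at 86.6 ± 0.67 CPM per kb (SD, n = 4). INTS1, the largest Integrator subunit, followed at 59.3 ± 6.79 CPM per kb and TCEA1, the elongation factor TFIIS, at 57.7 ± 5.93 CPM per kb, and these neighbours did not differ beyond their spread. SUPT16H (41.3 ± 3.43 CPM per kb), NELFB (41.1 ± 2.17 CPM per kb) and INTS10 (40.2 ± 5.22 CPM per kb) were also within their spread of each other. At the low end were IWS1 at 2.21 ± 0.59 CPM per kb, MLLT3 at 1.49 ± 0.75 CPM per kb, INTS6 at 1.25 ± 0.099 CPM per kb and INTS12 at 0.83 ± 0.41 CPM per kb. The value of INTS6 depends on its long annotated exons, 22916 bases in all, since it stood at 28.6 ± 2.27 CPM before division by length. The subunits of a complex were therefore measured at unequal levels. Within Integrator they spanned 59.3 to 0.83 CPM per kb, but the low end is INTS12, which had few reads and overlaps another gene, as described below. Within NELF the values were 86.6 CPM per kb for NELFCD, 45.6 ± 9.89 for NELFE, 41.1 for NELFB and 13.3 ± 1.94 for NELFA. The median over the 38 tested members was 64.8 CPM, not scaled for length, beside 37.4 CPM over all 12557 genes tested.

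**Figure D1:**
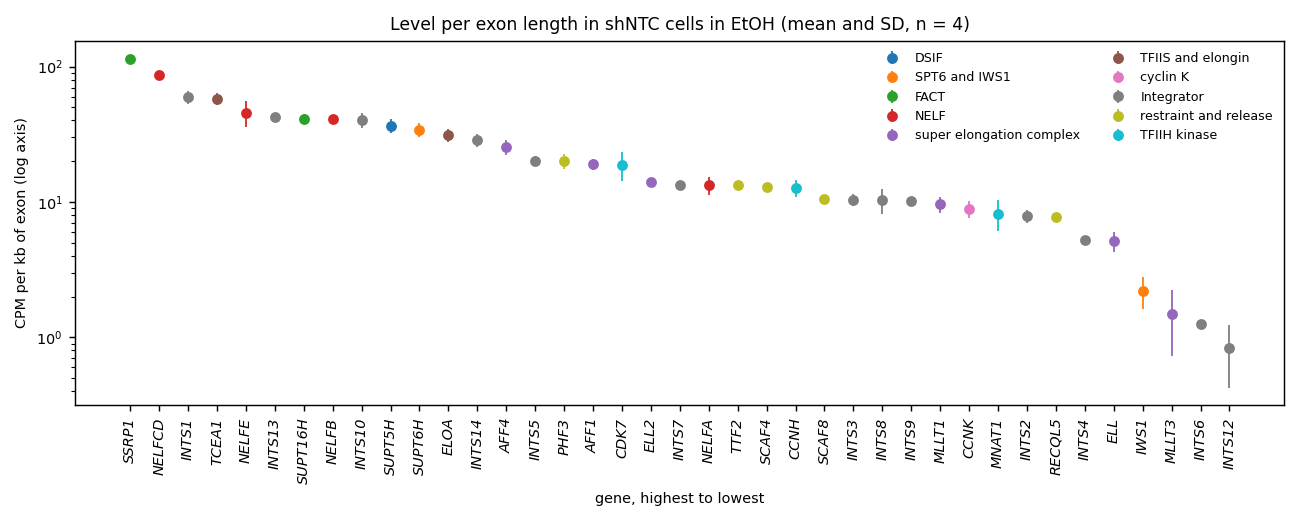
Level per exon length of the 39 members with reads in shNTC cells with EtOH, on a log axis in CPM per kb of exon, from highest to lowest. Points are means and bars SD of 4 libraries, coloured by role; SSRP1 is highest at 114.5 CPM per kb and INTS12 lowest at 0.83 CPM per kb.

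SUPT4H1, the small DSIF subunit, and EAF1, a partner of the ELL proteins, had 0 reads in all 40 libraries, and INTS12 had 0 to 5 reads per library. In the GENCODE 29 annotation all exon bases of SUPT4H1 lie inside another gene, most of them inside TSPOAP1-AS1 on the opposite strand, and all exon bases of EAF1 lie inside EAF1-AS1, also on the opposite strand. For INTS12 the share inside other genes is 82.4%, with ARHGEF38 on the opposite strand covering most. For IWS1, which binds SPT6 and had 1 to 17 reads per library, the share is 78.5%. Over all 19335 protein-coding genes, 66.2% of those with at least 90% of their exon bases inside another gene were at 0 in every library, against 7.84% of those with under 10%. How the authors' counting treated overlapping genes and strand is not given in the sources used here, and its part in these low values was not tested. A count of 0 is therefore no measure of the RNA of SUPT4H1 or EAF1, and no change is given for them. CCNK (64.2%), MNAT1 (53.1%) and CCNH (40.1%) also overlap other genes over much of their exons, so their counts are less certain. Smaller shares hold for ELOA (31.1%), INTS3 (26.2%), INTS8 (20.7%) and RECQL5 (18.4%), which are among the members called in all 4 knockdown comparisons below. The part of this overlap in their counts was not tested.

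**Figure D2:**
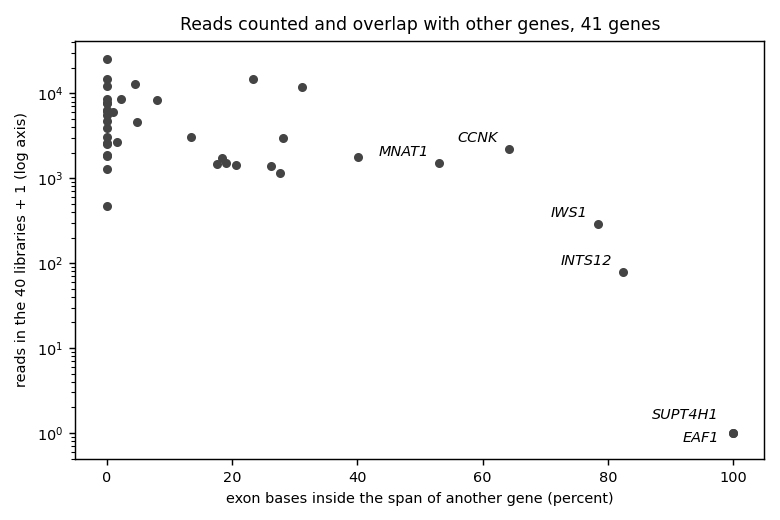
Reads counted over the 40 libraries, plus 1, on a log axis, against the percentage of exon bases that lie inside the span of another gene, for the 41 members. SUPT4H1 and EAF1 (100%, 0 reads), INTS12 (82.4%) and IWS1 (78.5%) sit at the lower right.

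The first comparison asks which of these genes respond to Dox, which switches MYC on. All libraries came from cells that carry the MYC construct, so effects of MYC and of Dox itself cannot be told apart. A gene is said to have risen or fallen where its adjusted p from the edgeR quasi-likelihood test was under 0.05, and changes are log2 fold changes ± standard error. In shNTC cells 6 members rose with Dox and none fell, 15.8% of the 38 tested. Of all genes tested 17.4% changed, 8.49% up and 8.93% down, so the share is near the background and is no result about these genes. The 32 others had changes of -0.49 to 0.36, with adjusted p of at least 0.0799 (DESeq2 also called 6). In shCTR9 cells 3 members rose and 1 fell (10.5%), beside 18.3% of all genes, 9.29% up and 9.05% down. In shCDC73 cells 5 rose and none fell (13.2%), beside 17.5% of all genes, 9.29% up and 8.24% down. No member separated all Dox from all EtOH libraries in shCTR9 or shCDC73 cells, beside 3.43% and 1.7% of all genes. The median change of the 38 was 0.06, 0.08 and 0.07 in shNTC, shCTR9 and shCDC73 cells, beside -0.01, -0.02 and -0.02 over all genes tested. Since RNA was taken from whole cultures, fewer cells expressing a gene and less RNA per cell cannot be told apart, here and in all results.

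ELOA, which encodes elongin A, a factor that raises the speed of the polymerase by suppressing its pauses, was the member that rose with Dox whichever hairpin target was used. It measured 234, 233, 209 and 231 CPM in Dox shNTC libraries, against 148, 145, 166 and 184 CPM in EtOH shNTC libraries. Every Dox library was above every EtOH library. The change was 0.50 ± 0.10 (adjusted p = 0.000468). In shCTR9 cells it ran from 231 to 311 CPM with a median of 290 in Dox, against 178 to 266 CPM with a median of 209 in EtOH, a change of 0.33 ± 0.07 (adjusted p = 0.00072) between ranges that overlap. In shCDC73 cells it ran from 261 to 390 CPM with a median of 296 in Dox, against 178 to 302 CPM with a median of 250 in EtOH, a change of 0.36 ± 0.07 (adjusted p = 0.000214). That call ended with shCDC73 #3 alone (0.27, adjusted p = 0.0892); in shNTC and shCTR9 cells it held without each library in turn.

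CDK7, the kinase of TFIIH that phosphorylates the tail of the polymerase as transcription starts, had the largest fitted change of the 38 in shNTC cells. It measured 50.3, 54.5, 70.0 and 54.3 CPM in Dox, against 47.3, 31.4, 28.9 and 31.0 CPM in EtOH. The groups do not overlap, but EtOH replicate 1 stands close to the Dox libraries. Its change was 0.73 ± 0.18 (adjusted p = 0.00338), a call that was lost when replicate 3 was dropped from all groups (0.53, adjusted p = 0.123). INTS13, a subunit of the auxiliary arm of Integrator, measured 163, 155, 187 and 171 CPM in Dox shNTC libraries, against 138, 116, 122 and 130 CPM in EtOH shNTC libraries, with no overlap. It rose by 0.42 ± 0.10 (adjusted p = 0.00252), but no longer passed once replicate 3 was dropped from all groups (adjusted p = 0.0606).

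The other 3 calls in shNTC cells were less firm. NELFA, the NELF subunit that contacts the polymerase, measured 71.2, 70.0, 47.6 and 56.7 CPM in Dox, against 35.5, 49.0, 49.3 and 43.6 CPM in EtOH, and its groups overlap. It rose by 0.47 ± 0.15 (adjusted p = 0.0198), a call that ended without Dox replicate 1 (adjusted p = 0.102), Dox replicate 2 (adjusted p = 0.0836) or EtOH replicate 1 (adjusted p = 0.0929). Leaving replicate 1 out of every group gave 0.31 (adjusted p = 0.226). ELL, an elongation stimulator of the super elongation complex, measured 31.6, 31.7, 35.5 and 31.5 CPM in Dox, against 17.7, 26.0, 20.4 and 21.0 CPM in EtOH. Its groups do not overlap, and it rose by 0.61 ± 0.20 (adjusted p = 0.0289), but the call ended without Dox replicate 1 or 3 and without EtOH replicate 1, 3 or 4 (adjusted p from 0.0504 to 0.0883). NELFCD, the NELF subunit that bridges the others, measured 228, 246, 245 and 223 CPM in Dox, against 202, 198, 199 and 199 CPM in EtOH, without overlap. Its rise of 0.24 ± 0.08 (adjusted p = 0.0364) ended without Dox replicate 1, 2 or 3 and without any of the EtOH replicates (adjusted p from 0.0502 to 0.104). In all, 10 of the 38 members had every Dox shNTC library above every EtOH shNTC library and AFF1 had every one below, while 22.7% of all genes tested did not overlap in 1 direction or the other.

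In knockdown cells Dox also changed SCAF4, INTS10, INTS13, ELL and TCEA1, of which INTS13 and ELL rose in shNTC cells too. SCAF4, a protein that binds the tail of the polymerase and prevents early termination, ran from 75.5 to 111 CPM with a median of 100 in Dox shCTR9 libraries, against 51.8 to 93.4 CPM with a median of 78.7 in EtOH shCTR9 libraries. It rose by 0.33 ± 0.09 (adjusted p = 0.00879) in shCTR9 cells and by 0.31 ± 0.10 (adjusted p = 0.0172) in shCDC73 cells, while in shNTC cells its change was 0.32 ± 0.14 (adjusted p = 0.128), with 66.9, 61.9, 65.3 and 75.6 CPM in Dox and 49.8, 52.8, 54.5 and 59.6 CPM in EtOH. The fitted size was thus nearly the same in the 3 kinds of cells, though the call was not. The shCTR9 call ended with either hairpin alone (adjusted p = 0.0605 with #3 and 0.224 with #5). The shCDC73 call ended with #3 alone (0.17, adjusted p = 0.515), without EtOH shCDC73 #4 replicate 3 (adjusted p = 0.0536) and without the 3 libraries that stand apart on transcript length (adjusted p = 0.0554). INTS10, of the same Integrator arm as INTS13, rose by 0.26 ± 0.07 (adjusted p = 0.00927) in shCTR9 cells and by 0.35 ± 0.07 (adjusted p = 0.000462) in shCDC73 cells, with 0.26 ± 0.10 (adjusted p = 0.0799) in shNTC cells. The shCTR9 call ended with either hairpin alone (adjusted p = 0.183 with #3 and 0.0808 with #5), and the shCDC73 call with #3 alone (adjusted p = 0.0924). INTS13 rose in shCDC73 cells (0.30 ± 0.08, adjusted p = 0.00394, ending with #4 alone at adjusted p = 0.202) and ELL rose there too (0.46 ± 0.13, adjusted p = 0.0111), which ended with either hairpin alone and without the 3 libraries that stand apart on length (0.27, adjusted p = 0.129). These hairpins alone gave adjusted p of 0.134 with #3 and 0.0932 with #4 for ELL. TCEA1 was the member that fell with Dox, in shCTR9 cells (-0.27 ± 0.07, adjusted p = 0.00298, ending with #5 alone at adjusted p = 0.122).

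The knockdown comparisons ask which of these genes change when a subunit of the PAF1 complex is lost. In EtOH 12 members rose and 10 fell with shCTR9, 57.9% of the 38, beside 45.6% of all genes tested, 23.2% up and 22.4% down. With shCDC73 in EtOH 12 rose and 10 fell as well (57.9%), beside 49% of all genes, 24.4% up and 24.6% down. In Dox 8 rose and 10 fell with shCTR9 (47.4%), beside 41.8% of all genes, 21.1% up and 20.6% down. With shCDC73 in Dox 8 rose and 9 fell (44.7%), beside 44.9% of all genes, 22.2% up and 22.7% down. Whether these shares differ from those of all genes was not tested, and they are no result about the list. The higher level of the members, a median of 64.8 CPM beside 37.4 CPM over all genes tested, was not allowed for. The median change of the 38 was 0.08 and -0.05 with shCTR9 and shCDC73 in EtOH and 0.12 and 0.11 in Dox, beside 0.02, 0.01, 0.01 and 0.01 over all genes tested. The libraries did not overlap between knockdown and shNTC for 11 and 15 members with shCTR9 and shCDC73 in EtOH and for 12 and 13 in Dox, beside 24.9%, 22.2%, 26% and 24.2% of all genes tested. Both knockdowns are set against the same shNTC libraries within a treatment, so their values are given side by side and not as evidence for each other.

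Across the 4 knockdown comparisons 8 members fell in each: INTS2, INTS3, INTS8, INTS13, INTS14, SUPT16H, RECQL5 and TCEA1. The 6 members INTS1, NELFB, NELFCD, ELL2, ELOA and SCAF4 rose in each. Of all 12557 genes tested 12.8% fell in all 4, 12.3% rose in all 4 and 31.6% passed in none. In 12 members no knockdown comparison passed, namely SUPT6H's partner IWS1, AFF1, AFF4, MLLT1, MLLT3, INTS4, INTS5, INTS6, INTS10, SCAF8, PHF3 and CCNH. Averaged over 2 hairpins, 22, 22, 18 and 17 calls were made with shCTR9 and shCDC73 in EtOH and with shCTR9 and shCDC73 in Dox, of which 15, 16, 11 and 13 were also made with each hairpin alone and 13, 18, 11 and 12 held when each library or replicate number was left out in turn. Without the 3 libraries that stand apart on transcript length the EtOH counts were 13 up and 10 down for each knockdown.

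**Figure D3:**
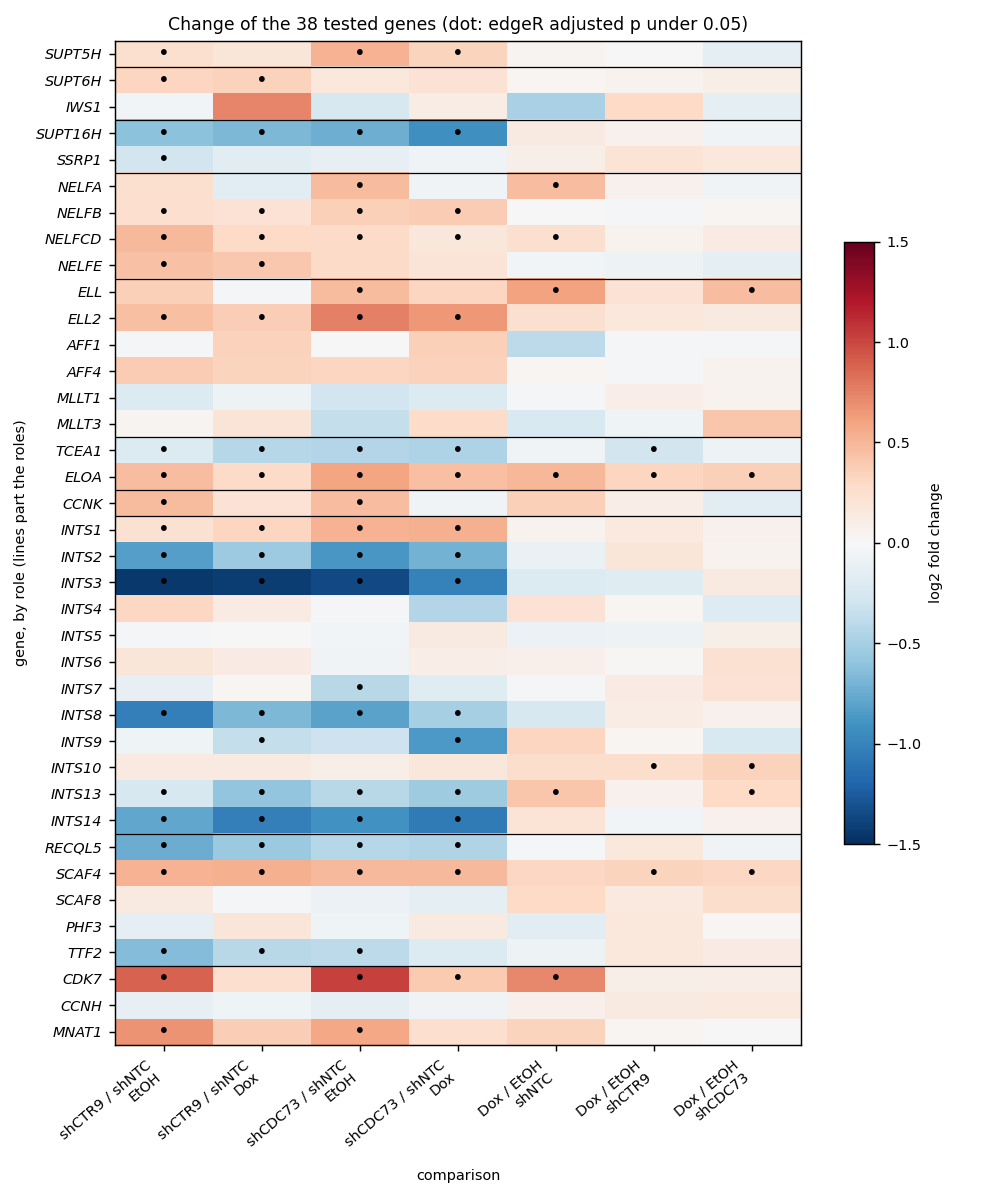
Fitted log2 fold change of the 38 tested members, ordered by role, in the 4 knockdown comparisons and the 3 Dox comparisons; blue is lower and red higher in the knockdown or in Dox, and a dot marks an edgeR adjusted p under 0.05. INTS3 is the darkest blue row in the knockdown columns on the left, where CDK7 with EtOH is the darkest red, and most cells of the Dox columns on the right are pale.

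Of the 12 tested Integrator subunits 1 rose and 5 fell with shCTR9 in EtOH, and 1 rose and 6 fell in each of the other 3 knockdown comparisons. Of all genes tested 21.1% to 24.4% rose and 20.6% to 24.6% fell in these comparisons. The median change of the 12 was -0.10 and -0.36 with shCTR9 and shCDC73 in EtOH and -0.19 and -0.47 in Dox, and whether the subunits differ as a group from other genes was not tested. INTS3, which links Integrator to single-stranded DNA binding proteins, ran from 9.26 to 29.6 CPM with a median of 24.0 in EtOH shCTR9 libraries and from 10.4 to 28.1 CPM with a median of 25.1 in EtOH shCDC73 libraries, against 52.3, 55.9, 63.1 and 64.6 CPM in EtOH shNTC libraries. Every knockdown library lay well below every control. The change was -1.44 ± 0.17 with shCTR9 (adjusted p = 6.66e-10) and -1.36 ± 0.16 with shCDC73 (adjusted p = 1.69e-09). In Dox it ran from 15.5 to 26.8 CPM with a median of 18.6 with shCTR9 and from 15.5 to 33.0 CPM with a median of 27.3 with shCDC73, against 39.5, 61.9, 47.6 and 56.7 CPM with shNTC, again without overlap (-1.42 ± 0.18 and -1.01 ± 0.17). Each of the 4 hairpins lowered it, by 0.85 to 1.63 on the log2 scale.

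INTS14, of the auxiliary arm with INTS10 and INTS13, ran from 37.8 to 68.2 CPM with a median of 44.3 in EtOH shCTR9 libraries and from 33.0 to 63.1 CPM with a median of 43.8 in EtOH shCDC73 libraries, against 91.2, 71.2, 86.1 and 77.2 CPM in EtOH shNTC libraries. Its changes in EtOH were -0.78 ± 0.12 and -0.91 ± 0.12 (adjusted p = 3.98e-07 and 1.12e-08). In Dox its levels were 39.9 to 54.7 CPM with shCTR9 and 29.4 to 61.1 CPM with shCDC73, against 99.2, 92.8, 90.5 and 93.7 CPM with shNTC, and the changes were -1.03 ± 0.12 and -1.06 ± 0.12 (adjusted p = 4.83e-10 and 2.28e-10). The groups do not overlap in either treatment, and each hairpin alone gave a call.

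INTS2 and INTS8, subunits around which the phosphatase is held, also fell. INTS2 ran from 23.1 to 47.8 CPM with a median of 30.9 with shCTR9 and from 21.8 to 38.4 CPM with a median of 33.2 with shCDC73 in EtOH, against 60.8, 53.6, 54.5 and 67.1 CPM with shNTC, without overlap (-0.83 ± 0.15 and -0.87 ± 0.15). In Dox its changes were -0.54 ± 0.15 with shCTR9, a call that ended with replicate 4 left out of every group (adjusted p = 0.0521), and -0.71 ± 0.15 with shCDC73. INTS8 ran from 15.7 to 34.8 CPM with a median of 21.3 with shCTR9 and from 10.4 to 36.2 CPM with a median of 28.5 with shCDC73 in EtOH, against 35.5, 59.7, 47.3 and 49.5 CPM with shNTC. All shCTR9 libraries were below the controls, and the shCDC73 range reached just above the lowest control. Its changes were -1.02 ± 0.17 and -0.80 ± 0.16 in EtOH and -0.67 ± 0.17 and -0.50 ± 0.17 in Dox. The Dox calls were the weaker ones: they ended with shCTR9 #5 alone (adjusted p = 0.0521) and with shCDC73 #4 alone (adjusted p = 0.0627), and the shCDC73 call also ended without Dox shNTC replicate 3 (adjusted p = 0.0546).

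INTS13 fell in all 4 comparisons, by 0.24 to 0.59 on the log2 scale. It ran from 99.6 to 124 CPM with a median of 112 with shCTR9 and from 98.6 to 128 CPM with a median of 119 with shCDC73 in Dox, against 163, 155, 187 and 171 CPM with shNTC, without overlap (-0.59 ± 0.09 and -0.53 ± 0.09, adjusted p = 3.58e-07 and 2.09e-06). In EtOH its ranges overlap those of shNTC, and the changes were -0.24 ± 0.09 (adjusted p = 0.0305) and -0.42 ± 0.09 (adjusted p = 0.00016). The shCTR9 call in EtOH ended with either hairpin alone, without EtOH shCTR9 #3 replicate 3, EtOH shCTR9 #5 replicate 2 or EtOH shNTC replicate 1 or 4 (adjusted p from 0.0528 to 0.099). The shCDC73 call ended with #4 alone (-0.23, adjusted p = 0.0863).

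INTS1, the scaffold of the complex, went the other way. It ran from 471 to 667 CPM with a median of 590 in EtOH shCDC73 libraries, against 343, 441, 440 and 428 CPM in EtOH shNTC libraries, and from 501 to 710 CPM with a median of 617 in Dox shCDC73 libraries, against 436, 458, 434 and 387 CPM in Dox shNTC libraries. No shCDC73 library reached down to a control, and the changes were 0.52 ± 0.09 and 0.53 ± 0.09. With shCTR9 the change in EtOH was 0.23 ± 0.09 (adjusted p = 0.0289), and that in Dox was 0.32 ± 0.09 (adjusted p = 0.00261). The shCTR9 call in EtOH rested on single libraries: it ended without EtOH shNTC replicate 1, where the change was 0.14 (adjusted p = 0.234), without EtOH shCTR9 #3 replicate 3 or 4 or #5 replicate 3 (adjusted p from 0.0682 to 0.081), and with #5 alone. The shCTR9 call in Dox ended with replicate 4 left out of every group (adjusted p = 0.0529).

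Other Integrator subunits changed in fewer comparisons. INTS9, which pairs with the endonuclease INTS11, ran from 14.8 to 27.8 CPM with a median of 20.1 in Dox shCDC73 libraries, against 27.3, 31.7, 45.7 and 41.7 CPM in Dox shNTC libraries, and fell (-0.86 ± 0.16, adjusted p = 1.51e-05). With shCTR9 in Dox its change was -0.36 ± 0.15 (adjusted p = 0.0453), a call that ended without Dox shNTC replicate 3 (-0.25, adjusted p = 0.231) or 4, without Dox shCTR9 #3 replicate 1 or 3 or #5 replicate 1, 2 or 4, and with either hairpin alone. INTS7, of the scaffold, ran from 37.3 to 49.9 CPM with shCDC73 in EtOH, against 56.6, 62.0, 63.1 and 55.4 CPM with shNTC, and fell (-0.42 ± 0.12, adjusted p = 0.00379), which ended with replicate 3 left out of every group (adjusted p = 0.0822). INTS4, INTS5, INTS6 and INTS10 passed in no knockdown comparison. Their changes ran from -0.44 ± 0.19 for INTS4 with shCDC73 in Dox (adjusted p = 0.0588) to 0.31 ± 0.19 for INTS4 with shCTR9 in EtOH, which does not show that they stayed the same. INTS5 stood at 42.9 to 89.2 CPM and INTS6 at 14.5 to 49.1 CPM over the knockdown libraries, ranges that include all of their shNTC values.

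**Figure D4:**
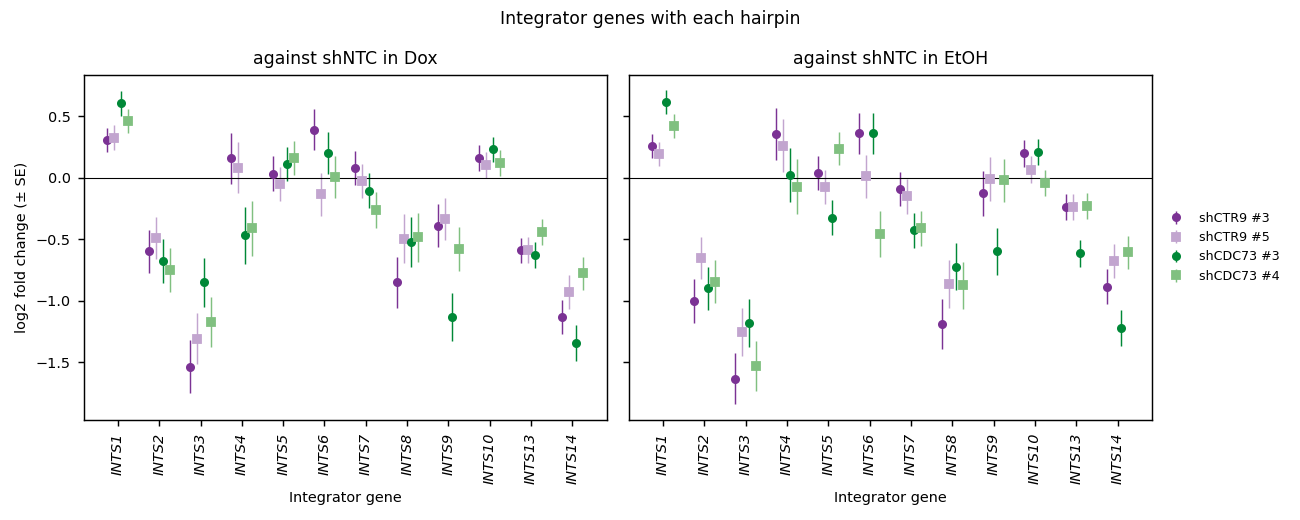
Log2 fold change ± standard error of the 12 tested Integrator subunits with each hairpin against shNTC in Dox (left) and EtOH (right). INTS3 and INTS14 lie below 0 with every hairpin and INTS1 above 0 with every hairpin.

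FACT, the histone chaperone that opens nucleosomes ahead of the polymerase, has 2 subunits, and their RNAs differed. SUPT16H ran from 107 to 167 CPM with a median of 153 with shCTR9 and from 114 to 172 CPM with a median of 128 with shCDC73 in EtOH, against 211, 209, 242 and 243 CPM with shNTC. In Dox it ran from 128 to 179 CPM with a median of 159 with shCTR9 and from 92.6 to 166 CPM with a median of 141 with shCDC73, against 229, 257, 244 and 264 CPM with shNTC. All knockdown libraries were below all controls in both treatments. The changes were -0.61 ± 0.10 and -0.73 ± 0.10 in EtOH and -0.68 ± 0.10 and -0.92 ± 0.10 in Dox (adjusted p from 4.65e-11 to 8.49e-07). SSRP1 fell in 1 comparison, shCTR9 in EtOH, with 158 to 312 CPM and a median of 282, below all shNTC libraries at 322, 313, 332 and 324 CPM (-0.28 ± 0.11, adjusted p = 0.0257). That call ended without EtOH shNTC replicate 3 (adjusted p = 0.063), with #5 alone, and with replicate 1 left out of every group (-0.18, adjusted p = 0.136); with transcript length as a covariate it was -0.16 (adjusted p = 0.0253). Its other 3 knockdown changes were -0.05 to -0.16.

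**Figure D5:**
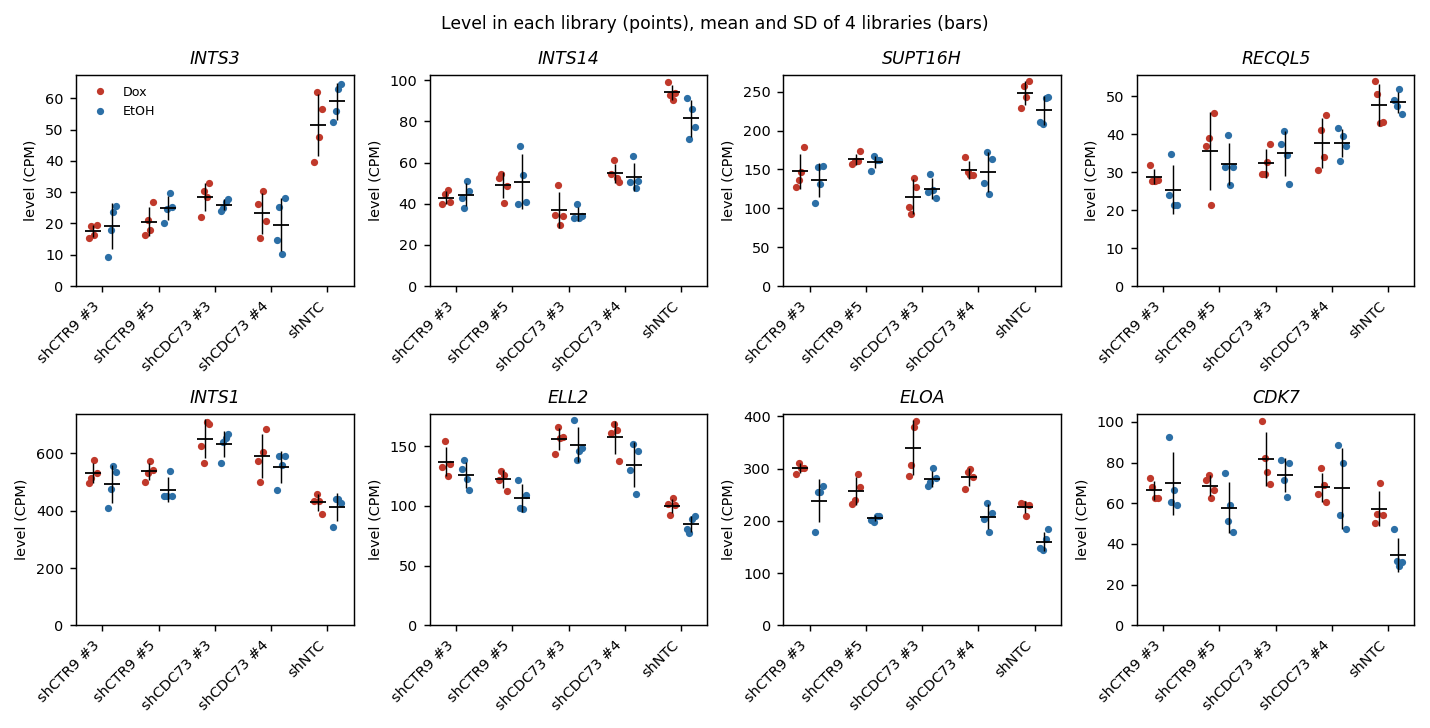
CPM of 8 members in each library (points), Dox in red and EtOH in blue, with the mean and SD of the 4 libraries of each group, for the 4 knockdown hairpins and, at the right of each panel, shNTC. INTS3, INTS14, SUPT16H and RECQL5 sit lower with the knockdown hairpins than with shNTC, INTS1 and ELL2 sit higher, and in ELOA and CDK7 the red points of shNTC lie above the blue ones.

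SUPT5H, the large DSIF subunit and the partner of the uncounted SUPT4H1, ran from 199 to 224 CPM with a median of 214 in EtOH shCDC73 libraries, against 133, 142, 145 and 174 CPM in EtOH shNTC libraries. It rose by 0.52 ± 0.08 (adjusted p = 1.07e-06) without overlap. In Dox it rose by 0.33 ± 0.08 with shCDC73 (adjusted p = 0.00123), where the ranges overlap, at 170 to 206 CPM, against 156, 170, 161 and 125 CPM, and the call ended with replicate 4 left out of every group (0.21, adjusted p = 0.0588). With shCTR9 its changes were 0.24 ± 0.08 in EtOH (adjusted p = 0.0172) and 0.19 ± 0.08 in Dox (adjusted p = 0.0723). The EtOH call ended without EtOH shCTR9 #5 replicate 4 or EtOH shNTC replicate 1, 2 or 3 (adjusted p from 0.0567 to 0.111). SUPT6H, the histone chaperone SPT6, rose with shCTR9 in EtOH (0.32 ± 0.11, adjusted p = 0.0189) and in Dox (0.35 ± 0.11, adjusted p = 0.0133). In Dox it stood at 259 to 316 CPM, against 225, 227, 237 and 242 CPM with shNTC, without overlap, while in EtOH the range of 183 to 352 CPM covers the controls. The 183 CPM belongs to EtOH shCTR9 #3 replicate 1, which is among the 3 libraries that stand apart on length. In the other EtOH shCTR9 libraries SUPT6H ran from 253 to 352 CPM, against 198 to 254 CPM with shNTC. Both calls ended with #5 alone (adjusted p = 0.0831 and 0.0871). The EtOH call ended without EtOH shCTR9 #3 replicate 4 or EtOH shNTC replicate 1 or 2 (adjusted p from 0.0576 to 0.101). IWS1 passed in no comparison; at 1.17 to 13.9 CPM over all libraries it lies near the floor of 3 counts, and its standard errors of 0.30 to 0.45 leave large changes undetectable at this depth.

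Of the 4 NELF subunits 3 rose in EtOH with either knockdown, 3 with shCTR9 in Dox and 2 with shCDC73 in Dox, and none fell. With 4 genes, and 21.1% to 24.4% of all genes rising in each comparison, these counts describe single subunits, and the group was not tested. NELFCD ran from 261 to 308 CPM with a median of 274 with shCTR9 and from 225 to 272 CPM with a median of 245 with shCDC73 in EtOH, against 202, 198, 199 and 199 CPM with shNTC. Neither range reaches a control, and the changes were 0.48 ± 0.07 (adjusted p = 2.49e-07) and 0.29 ± 0.07 (adjusted p = 0.000857). In Dox they were 0.30 ± 0.07 with shCTR9 and 0.17 ± 0.07 with shCDC73 (adjusted p = 0.0494). The shCDC73 call is at the threshold. It ended without any of Dox shNTC replicates 1, 3 and 4, Dox shCDC73 #3 replicates 2, 3 and 4 and Dox shCDC73 #4 replicates 3 and 4 (adjusted p from 0.0554 to 0.136). With replicate 4 left out of every group it was 0.11 (adjusted p = 0.313).

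NELFB, the scaffold between NELFCD and NELFE, ran from 121 to 189 CPM with a median of 138 with shCDC73 in EtOH, against 103, 116, 110 and 114 CPM with shNTC, and rose by 0.36 ± 0.09 there and by 0.38 ± 0.09 in Dox, without overlap in either, with 0.23 for #3 alone in EtOH (adjusted p = 0.0444). With shCTR9 its changes were 0.26 ± 0.09 in EtOH (adjusted p = 0.013) and 0.22 ± 0.09 in Dox (adjusted p = 0.0357). The EtOH call ended without EtOH shNTC replicate 1 (adjusted p = 0.068) and with #5 alone. The Dox call ended without any of Dox shNTC replicates 1, 2 and 4, Dox shCTR9 #3 replicates 1, 2 and 3 and #5 replicates 1 and 3 (adjusted p from 0.0507 to 0.141). NELFE, the RNA-binding subunit, rose with shCTR9 in EtOH (0.44 ± 0.15, adjusted p = 0.0132) and in Dox (0.41 ± 0.15, adjusted p = 0.0271). In Dox it stood at 90.1 to 125 CPM, against 86.3, 82.2, 71.8 and 77.9 CPM with shNTC. The EtOH call ended with #5 alone and without either of EtOH shNTC replicates 3 and 4 (adjusted p = 0.0813 and 0.0711), and its value was 0.25 with transcript length as a covariate (adjusted p = 0.021). The Dox call ended without Dox shNTC replicate 3 or 4, Dox shCTR9 #3 replicate 4 or #5 replicate 1 (adjusted p from 0.0505 to 0.087) and with either hairpin alone. NELFA rose with shCDC73 in EtOH, where it ran from 53.9 to 69.4 CPM with a median of 61.9, against 35.5, 49.0, 49.3 and 43.6 CPM with shNTC (0.47 ± 0.13, adjusted p = 0.00214). In Dox its changes were -0.16 ± 0.12 and -0.05 ± 0.12, and neither passed.

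In the super elongation complex, which brings the pause-release kinase to the polymerase, ELL2 rose in all 4 knockdown comparisons and ELL in 1. ELL2 ran from 97.1 to 139 CPM with a median of 117 with shCTR9 and from 110 to 172 CPM with a median of 146 with shCDC73 in EtOH, against 81.0, 77.3, 89.4 and 91.4 CPM with shNTC. In Dox it ran from 113 to 154 CPM with a median of 128 and from 137 to 169 CPM with a median of 159, against 101, 92.0, 106 and 101 CPM. In all 4 comparisons every knockdown library was above every control. The rises were 0.45 ± 0.09 and 0.75 ± 0.09 in EtOH and 0.37 ± 0.09 and 0.65 ± 0.09 in Dox (adjusted p from 2.57e-09 to 0.00083), and each hairpin alone gave a call. Its relative ELL rose with shCDC73 in EtOH (0.47 ± 0.18, adjusted p = 0.0254), with 0.81 for #3 alone and 0.14 for #4 alone (adjusted p = 0.649), and the call ended without EtOH shNTC replicate 1, 3 or 4 or EtOH shCDC73 #4 replicate 2 or 4 (adjusted p from 0.0507 to 0.0945). The scaffolds AFF1 and AFF4 and the chromatin readers MLLT1 and MLLT3 passed in no comparison, with knockdown changes from -0.36 ± 0.29 for MLLT3 to 0.38 ± 0.19 for AFF4 (adjusted p = 0.0962). AFF4 measured 161 CPM in EtOH shCTR9 #3 replicate 1 and 164 and 148 CPM in EtOH shCDC73 #4 replicates 1 and 3. These are the 3 libraries that stand apart on length. In all other EtOH knockdown libraries AFF4 ran from 295 to 456 CPM, above every EtOH shNTC library at 214 to 292 CPM. The missing call therefore does not show that its level stayed the same in EtOH. MLLT3 stood at 3.36 to 16.0 CPM, so that its standard errors of 0.23 to 0.33 are large.

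TCEA1, which lets a stalled polymerase cut its RNA and resume, fell with both knockdowns. It ran from 127 to 185 CPM with a median of 140 with shCTR9 and from 123 to 172 CPM with a median of 144 with shCDC73 in Dox, against 190, 201, 188 and 201 CPM with shNTC, without overlap (-0.43 ± 0.08 and -0.46 ± 0.08). In EtOH it ran from 131 to 185 CPM with shCDC73, against 233, 195, 189 and 191 CPM with shNTC, also without overlap (-0.44 ± 0.08, adjusted p = 1.23e-05, or -0.27 with #4 alone). With shCTR9 in EtOH the ranges overlap, at 142 to 206 CPM, and the change was -0.20 ± 0.08 (adjusted p = 0.0332). That call ended without EtOH shNTC replicate 1 (-0.14, adjusted p = 0.189), the highest of the controls, without EtOH shCTR9 #3 replicate 3 or #5 replicate 2 (adjusted p = 0.0634 and 0.0522), and with #5 alone. ELOA rose in all 4 knockdown comparisons, by 0.46 ± 0.09 and 0.59 ± 0.09 in EtOH and by 0.29 ± 0.09 and 0.45 ± 0.09 in Dox with shCTR9 and shCDC73 in each. With shCDC73 #4 alone in EtOH it was 0.38 (adjusted p = 0.00375). Its shCTR9 call in Dox ended with #5 alone (0.18, adjusted p = 0.196) and with replicate 3 left out of every group (adjusted p = 0.0978). CCNK, the cyclin of the kinases that phosphorylate the moving polymerase, ran from 25.0 to 61.5 CPM with shCTR9 and from 35.3 to 56.4 CPM with shCDC73 in EtOH, against 28.7, 36.0, 34.2 and 40.3 CPM with shNTC. Its rises of 0.47 ± 0.15 and 0.46 ± 0.15 (adjusted p = 0.00955 and 0.0107) both ended without EtOH shNTC replicate 1 (adjusted p = 0.0565 and 0.0586), and the shCDC73 one with #4 alone (adjusted p = 0.161). In Dox it did not pass (0.22 ± 0.15 and -0.06 ± 0.15).

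Among proteins that restrain or release the polymerase, RECQL5, a helicase that binds the polymerase and slows it, fell in all 4 comparisons. It ran from 21.2 to 39.8 CPM with a median of 28.9 with shCTR9 and from 26.9 to 41.6 CPM with a median of 37.2 with shCDC73 in EtOH, against 49.0, 47.5, 51.9 and 45.3 CPM with shNTC, without overlap (-0.74 ± 0.14 and -0.42 ± 0.14). In Dox the ranges overlap, at 21.2 to 45.4 CPM and 29.4 to 44.9 CPM, against 53.9, 50.5, 42.9 and 43.3 CPM, and the changes were -0.56 ± 0.14 and -0.45 ± 0.14. The shCTR9 call in Dox ended with #5 alone (adjusted p = 0.0592), both shCDC73 calls ended with #4 alone (0.0606 in EtOH, 0.116 in Dox, each an adjusted p). The shCDC73 call in Dox ended without Dox shNTC replicate 1 (adjusted p = 0.0502). TTF2, an ATPase that strips the polymerase from DNA, ran from 63.0 to 101 CPM with shCTR9 and from 60.1 to 112 CPM with shCDC73 in EtOH, against 130, 118, 116 and 138 CPM with shNTC, without overlap (-0.65 ± 0.11 and -0.40 ± 0.11). It also fell with shCTR9 in Dox (-0.42 ± 0.11), and its change with shCDC73 in Dox was -0.20 ± 0.11 (adjusted p = 0.117). The shCDC73 value in EtOH was -0.24 with #3 alone (adjusted p = 0.0908) and -0.26 without the 3 libraries that stand apart on length (adjusted p = 0.0133).

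SCAF4 rose in all 4 comparisons, by 0.52 ± 0.12 and 0.49 ± 0.12 in EtOH and 0.53 ± 0.12 and 0.49 ± 0.12 in Dox. In Dox shCDC73 libraries it stood at 85.4 to 106 CPM, against 66.9, 61.9, 65.3 and 75.6 CPM with shNTC, without overlap, and in EtOH its ranges of 51.8 to 93.4 CPM with shCTR9 and 44.6 to 102 CPM with shCDC73 overlap the controls, at 49.8 to 59.6 CPM. The overlap comes from EtOH shCTR9 #3 replicate 1 at 51.8 CPM and EtOH shCDC73 #4 replicate 3 at 44.6 CPM. Both are among the 3 libraries that stand apart on length. All other EtOH knockdown libraries stood at 65.9 CPM or more, above every control. The shCDC73 call in EtOH ended with #4 alone (0.26, adjusted p = 0.145). Its paralogue SCAF8 passed in no comparison (knockdown changes of -0.13 to 0.14, standard error 0.14 or 0.15), and neither did PHF3, which binds the tail of the polymerase (-0.15 to 0.18, standard error 0.15).

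The TFIIH kinase consists of CDK7, its cyclin CCNH and the assembly factor MNAT1. CDK7 ran from 46.1 to 92.6 CPM with a median of 60.0 with shCTR9 and from 47.3 to 88.5 CPM with a median of 75.7 with shCDC73 in EtOH, against 47.3, 31.4, 28.9 and 31.0 CPM with shNTC. EtOH shNTC replicate 1 lay inside the shCTR9 range and just under the lowest shCDC73 library, and the other 3 controls lay below both ranges. The rises, 0.88 ± 0.16 (adjusted p = 1.15e-05) and 1.02 ± 0.16 (adjusted p = 5.02e-07), were the largest upward changes among the members in EtOH and held with each hairpin alone and without each library. In Dox, where the control had risen to 50.3 to 70.0 CPM, the changes were 0.25 ± 0.15 with shCTR9 (adjusted p = 0.171) and 0.39 ± 0.15 with shCDC73 (adjusted p = 0.0251). The shCDC73 call in Dox ended with #4 alone (adjusted p = 0.266) and without Dox shNTC replicate 1, 2 or 4 or Dox shCDC73 #3 replicate 1 (adjusted p from 0.0604 to 0.092). MNAT1 rose in EtOH by 0.68 ± 0.19 with shCTR9 (adjusted p = 0.00273) and by 0.58 ± 0.19 with shCDC73 (adjusted p = 0.00996), at 29.2 to 45.4 CPM and 17.5 to 48.7 CPM, against 19.4, 29.9, 19.7 and 17.6 CPM with shNTC. Without the 3 libraries that stand apart on length the shCDC73 value was 0.28 (adjusted p = 0.185), with transcript length as a covariate it was 0.38 (adjusted p = 0.0437), and dropping replicate 2 from all groups gave 0.88. CCNH passed in no comparison, with knockdown changes of -0.13 to -0.06, each ± 0.16.

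Whether the Dox response itself differed after a knockdown was tested as an interaction. No member passed for either knockdown, in edgeR or in DESeq2. Of all genes 0.597% passed for shCTR9, 0.398% up and 0.199% down, and 0.47% for shCDC73, 0.319% up and 0.151% down. In edgeR 3 members had an unadjusted p under 0.05 for shCTR9 and 4 for shCDC73, and in DESeq2 also 3 and 4. In edgeR these were CDK7, INTS13 and NELFA for shCTR9 and CDK7, NELFA, INTS9 and CCNK for shCDC73, each with a negative difference. For CDK7 the difference was -0.63 ± 0.22 with each knockdown (adjusted p = 0.217 and 0.25), where its Dox change was 0.09 ± 0.12 in shCTR9, 0.10 ± 0.12 in shCDC73 and 0.73 ± 0.18 in shNTC cells. A Dox call in shNTC cells without one in knockdown cells is therefore not shown to be a difference. MYC RNA in Dox was also lower with each knockdown hairpin than with shNTC, and its part in these values was not tested.

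The knockdowns were also set against each other. In EtOH 3 members were higher and 3 lower with shCTR9 than with shCDC73 (15.8%), or 2 and 4 with the size factors of DESeq2 in edgeR. Of all genes 14.9% differed, 8.34% higher and 6.59% lower. SUPT5H ran from 158 to 198 CPM with a median of 169 with shCTR9, against 199 to 224 CPM with a median of 214 with shCDC73, the single member without overlap, where 0.916% of all genes tested did not overlap (-0.28 ± 0.07, adjusted p = 0.00272, or 0.069 with replicate 2 left out of every group). INTS1 (-0.29 ± 0.07, adjusted p = 0.00274) and ELL2 (-0.30 ± 0.07, adjusted p = 0.00317) were lower, and of these INTS1 ended with #5 against #4 alone (adjusted p = 0.113) and ELL2 with #3 of each alone (adjusted p = 0.0759). NELFCD (0.20 ± 0.06), TCEA1 (0.23 ± 0.07) and INTS7 (0.30 ± 0.10) were higher with shCTR9. The call on NELFCD ended without EtOH shCTR9 #3 replicate 3 or #5 replicate 4 (adjusted p = 0.0533 and 0.0523) and with either pair of hairpins alone (adjusted p = 0.0516 and 0.141). The call on TCEA1 ended without EtOH shCTR9 #3 replicate 1 (adjusted p = 0.0686), without the 3 libraries that stand apart on length (adjusted p = 0.05) and with #5 against #4 alone (0.15, adjusted p = 0.29). The call on INTS7 ended without those 3 libraries (adjusted p = 0.0742) or any 1 of 11 of the 16 libraries (adjusted p from 0.0605 to 0.131), namely EtOH shCDC73 #3 replicates 1, 3 and 4, #4 replicates 1, 3 and 4, EtOH shCTR9 #3 replicates 3 and 4 and #5 replicates 2, 3 and 4.

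In Dox 2 members were higher and 2 lower with shCTR9 than with shCDC73 (10.5%), and none of these calls held with each hairpin alone. Of all genes 10.3% differed, 5.69% higher and 4.65% lower, and no member separated the libraries, beside 1.25% of all genes. ELL2 stood at 113 to 154 CPM with shCTR9, against 137 to 169 CPM with shCDC73 (-0.27 ± 0.07, adjusted p = 0.00832, or 0.296 with #3 of each alone). INTS9 stood at 20.9 to 34.6 CPM, against 14.8 to 27.8 CPM (0.49 ± 0.14, adjusted p = 0.0153), with 0.75 for #3 of each and 0.24 for #5 against #4. INTS4 stood at 20.3 to 38.1 CPM, against 14.0 to 29.6 CPM (0.56 ± 0.16, adjusted p = 0.0161), and the call ended without Dox shCDC73 #3 replicate 1, Dox shCTR9 #3 replicate 4 or #5 replicate 2 (adjusted p from 0.0514 to 0.0715). INTS1 was lower with shCTR9 (-0.22 ± 0.07, adjusted p = 0.0351), a call that ended without any of 7 libraries (adjusted p from 0.0501 to 0.107), namely Dox shCDC73 #3 replicates 3 and 4, #4 replicates 3 and 4, Dox shCTR9 #3 replicates 1 and 2 and #5 replicate 1.

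Of 44 other genes of the same pathway, 39 were tested. Dox raised 2 and lowered 0 of them in shNTC cells, raised 1 and lowered 1 in shCTR9 cells and raised 3 and lowered 1 in shCDC73 cells (5.13%, 5.13% and 10.3%, beside 17.4%, 18.3% and 17.5% of all genes). With shCTR9 12 rose and 9 fell in EtOH (53.8%, beside 45.6% of all genes) and 10 rose and 9 fell in Dox (48.7%, beside 41.8%). With shCDC73 13 rose and 10 fell in EtOH (59%, beside 49%) and 14 rose and 10 fell in Dox (61.5%, beside 44.9%). Among partners of the Integrator subunits described here, INTS15 averaged 134.9 ± 15.8 CPM with shCTR9 #3, 117.6 ± 3.85 CPM with shCTR9 #5, 144.8 ± 12.8 CPM with shCDC73 #3 and 145.5 ± 19.2 CPM with shCDC73 #4 in EtOH, and 75.8 ± 5.02 CPM with shNTC (SD, n = 4 each). It rose by 0.73 ± 0.10 and 0.93 ± 0.10 in EtOH, as INTS1 did and INTS3 did not. INTS11, the endonuclease that pairs with INTS9, passed in no comparison (0.14 to 0.26 in the knockdowns). In the core of TFIIH, to which the CDK7 kinase binds, GTF2H3 fell by 1.00 and 0.88 on the log2 scale in EtOH and by 1.15 and 1.11 in Dox with shCTR9 and shCDC73, the opposite direction to CDK7. POLR2M, the polymerase-binding protein Gdown1, fell by 0.94 and 1.12 on the log2 scale in EtOH, and HTATSF1, a cofactor of elongation, rose by 0.77 ± 0.10 and 0.79 ± 0.10.

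The genomic length of the members was set beside these changes as a description. Members that fell with shCTR9 in EtOH had a median span of 43.5 kb and those that rose 40.5 kb, beside 45.5 kb and 24.8 kb for all genes that fell and rose. With shCDC73 in EtOH the medians were 47 kb and 48.2 kb, beside 44.2 kb and 23 kb. In Dox, members that fell and rose with shCTR9 had medians of 47 kb and 26.5 kb, beside 42.1 kb and 26.9 kb for all genes. For shCDC73 in Dox they were 46.7 kb and 37.3 kb, beside 44.8 kb and 24.1 kb. Across the 38 members the Spearman correlation of span with change was 0.02 and -0.05 in EtOH and 0.13 and -0.01 in Dox, beside -0.16, -0.16, -0.09 and -0.13 across 12316 genes, all in the same libraries.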

How the data were processed

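RNA was measured by sequencing in 40 libraries from U2OS cells, 4 in each of 10 groups. The authors deposited, per library, whole-number counts of reads per gene, in 63545 entries. Of these, 393 with identifiers starting with LRG were left out, which held 0 reads in every library. Other genes with 0 reads were kept. Per the labels' protocols, total RNA was extracted with RLT buffer (Qiagen) and libraries were made with NEB reagents. Per the submitters' processing notes, Bowtie, HISAT2, edgeR and the build hg19 were used; the sources used here give no versions, roles, counter, annotation or strand setting. Gene identifiers were matched to GENCODE 29 (GRCh38), from which exon lengths and overlaps were taken, and all 41 members matched. Groups came from the labels, and the knockdown comparisons average the pair of hairpins of a target, 8 libraries against 4.

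Counts were tested with edgeR 4.0.16 (R 4.3.3): filterByExpr with a minimum count of 10 and a total of 15, TMM scaling (factors 0.9226 to 1.029), 1 model of 10 group means with 30 residual degrees of freedom, robust quasi-likelihood tests and Benjamini-Hochberg adjustment over 12557 genes, which hold 98.65% of reads. Standard errors are the fold change divided by the root of F. The median library total was 1213230.5 counts, and the chi-square per degree of freedom between replicate libraries was 1.06 to 9.04 over 60 pairs, so none was treated as a repeat deposit. Alternatives were DESeq2 1.42.0, other size factors, no filter, fits of the compared groups only, each hairpin alone, a replicate term, libraries summed by the letter A or B in the deposited names (its meaning is not given), a covariate for transcript length, and libraries left out. The model fits were tested on simulated data. The members and gene lists were chosen with earlier results of these data known. All called members were named where a comparison had at most 15, and otherwise at least the 15 with the smallest p. The result of 1 marker list is not reported here.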

Additional observations from a re-analysis of the deposited data

Results flagged for a closer look

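In 130 groups of 4 libraries, 13 members by 10 groups, 10 had 1 library far from the other 3, where chance gives about 1 in 20. CDK7 measured 47.3 CPM in EtOH shNTC replicate 1, with the other 3 at 28.9 to 31.4 CPM, and TCEA1 measured 233 CPM in the same library, with the others at 189 to 195 CPM. CCNK measured 50.4 CPM in Dox shNTC replicate 4, with the others at 42 to 43.1 CPM. ELOA measured 209 CPM in Dox shNTC replicate 3, with the others at 231 to 234 CPM. It measured 178 CPM in EtOH shCTR9 #3 replicate 1, with the others at 255 to 266 CPM, and that library is 1 of the 3 that stand apart on transcript length. NELFCD measured 332 CPM in Dox shCTR9 #5 replicate 3, with the others at 281 to 287 CPM, and 225 CPM in EtOH shCDC73 #3 replicate 3, with the others at 246 to 251 CPM. RECQL5 measured 31.8 CPM in Dox shCTR9 #3 replicate 1, with the others at 27.6 to 27.9 CPM. SUPT5H measured 198 CPM in EtOH shCTR9 #5 replicate 4, with the others at 166 to 171 CPM. TCEA1 measured 172 CPM in Dox shCDC73 #4 replicate 3, with the others at 151 to 154 CPM. Where leaving out such a library ends a call, its adjusted p stands with that result.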

How the results depend on the processing

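No result changed direction under the alternatives run. Over the calls of single genes, 281 alternatives ended a call and 2463 kept it. By setting, 35 calls ended with shCTR9 #5 and shCDC73 #4 alone and 17 with hairpin #3 of each target alone. With no filter 13 calls ended, with only the compared groups 11, with libraries summed by letter 4, in DESeq2 3 and with other size factors 1. Counts of called members moved by over 1.5 times as follows. With hairpin #3 alone Dox called 1 member in shCDC73 cells and 2 in shCTR9 cells, and with #5 alone 1 in shCTR9 cells, while shCTR9 against shNTC in Dox gave 11 with #5 alone. With transcript length as a covariate Dox in shNTC cells gave 11, and shCTR9 against shCDC73 gave 12 in Dox and 13 in EtOH. That comparison in Dox gave 2 with #3 of each, 1 with #5 against #4 and 8 without the 3 libraries that stand apart on length, and in EtOH 3 with no filter and 3 with only the compared groups. The cause was not tested. Leaving out 1 library or replicate number, the counts ran from 2 to 6 for Dox in shNTC, 2 to 5 in shCTR9 and 3 to 6 in shCDC73 cells. Dox in shNTC cells gave 3 without Dox shNTC replicate 1 and 2 without replicate 3. Dox gave 3 in shCDC73 cells without replicate 3 or 4 and 2 in shCTR9 cells without replicate 3. For shCTR9 against shCDC73, Dox gave 2, 1 and 1 without replicates 2, 3 and 4, and EtOH gave 3 and 2 without replicates 2 and 4. They ran from 15 to 23 and 19 to 22 for shCTR9 and shCDC73 in EtOH, 13 to 18 and 14 to 17 in Dox, and 2 to 7 in EtOH and 1 to 5 in Dox for shCTR9 against shCDC73, and were 0 for both interactions.

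The main model did not pair libraries by replicate number. Over 180 same-numbered pairs the correlation of deviations was -0.138 to 0.518 with a median of 0.045, and 42 pairs exceeded 0.1. Pairs with different numbers had a median of -0.012, so libraries with the same number were slightly more alike in the median. What they share was not tested. With a replicate block, Dox gave 6, 5 and 5 calls in shNTC, shCTR9 and shCDC73 cells, shCTR9 and shCDC73 gave 22 and 22 in EtOH and 19 and 19 in Dox, shCTR9 against shCDC73 gave 7 in EtOH and 6 in Dox, and the interactions gave 0. Depth limits IWS1, MLLT3 and INTS12 most, since they lie near the floor of 3 counts.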
